A study of Homo sapiens with 3 samples.

Results

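The genes described here encode the machinery of the moving DNA replication fork: the sliding clamp and its loader, the 3 replicative DNA polymerases with primase, the helicase partners, the single-strand binding protein RPA, the topoisomerases, and the factors that mature, methylate, repackage and protect new DNA. They were a set of 40 gene symbols, chosen with earlier results of these data known. A probe was taken when its symbol in the array platform's annotation was one of them. All 40 were on the array, through 45 probes, out of 18639 named genes in all. Gene expression was measured in HT29, an established human colorectal cancer cell line, after 24 h of exposure to DMSO, used as the control, or to a linderapyrone derivative at 5 µM or 20 µM. There was 1 array per group, so 3 in all. The labels disagree on the unit, with mM in the titles but µM in the treatment fields and descriptions, and µM is used here. Every culture was 1 dish of HT29 in low-glucose DMEM with 5% fetal bovine serum, but no label says whether the dishes were grown or extracted together, and none gives the structure of the derivative.

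At a fork, the helicase built from MCM proteins, CDC45 and GINS unwinds the duplex, and topoisomerases relieve the twist that this creates. Primase and polymerase alpha lay down short primers, RFC loads the PCNA clamp onto them, and polymerases delta and epsilon extend the strands. Most of these genes are transcribed in waves as cells enter S phase, largely under E2F factors, while TOP2A peaks later, with the genes of mitosis. In a bulk sample of cycling cells, fewer cells in a phase and less RNA per cell cannot be told apart.

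Of the gene probes, between 85.6% and 86.2% were detected on each array, with a median spot signal of 117 in DMSO, 107 with 5 µM and 110 with 20 µM. All 40 genes were detected on all 3 arrays, and their lowest spot signal in DMSO was 126 against a detection threshold of 82.5. Signals below are normalized signals in arbitrary units with an offset of 50 included, and log2 ratios are differences of their log2 values, so the differences of dim genes are understated. With no replicates there was no test. The only measured error was technical: pairs of detected probes for 1 gene gave an SD per log2 ratio of 0.15 for 20 µM over DMSO, 0.11 for 5 µM over DMSO and 0.12 for 20 over 5 µM. All 9 colon epithelial markers measured were detected on each array, with CDX2 and CDH17 near the threshold. Of the 6 fibroblast markers 4 were detected on each array, while COL1A1 and COL1A2 were not. DCN was the brightest of them, with a spot signal of 231 in DMSO, though only 1 of its 2 probes was detected on all 3 arrays. With the offset of 50 in each, the 6 summed to a normalized signal of 545 in DMSO, 578 with 5 µM and 552 with 20 µM. Of the 6 liver markers 5 were detected on each array and ALB was not, and the brightest spot on any array read 107. Among the 3 blood and immune markers measured, PTPRC was undetected. CD3E was detected near the threshold on each array, by 1 of its 2 probes. LYZ was bright, at 13916 in DMSO, 13855 with 5 µM and 12033 with 20 µM.

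At 20 µM the replication fork genes were lower than in DMSO as a group, by modest amounts. Of the 40 genes, 34 had a log2 ratio below 0, where 47.1% of all 16062 genes detected on both arrays did. Their median log2 ratio was -0.21, against 0.0071 over all detected genes. A difference of at least 1.5-fold was counted as a call. By this rule 5 of the 40 genes were lower, TOP2A, UHRF1, PCNA, GINS2 and PRIM2, where 1.84% of all detected genes were. None of the 40 was at least 1.5-fold higher, where 1.94% of all genes were. With signals at least 2 times the threshold on both arrays, 4 of 29 replication fork genes were at least 1.5-fold lower, where 3.42% of all such genes were. At least 1.5-fold lower in the authors' value table were 10 of the 40 genes, where 6.93% of all genes were. PRIM2, with a log2 ratio of -0.59, was just inside the 1.5-fold threshold and LIG1, at -0.52, just outside. A smaller difference was more common: 17 of the 40 genes lay more than 2 technical SDs below 0, where 8.61% of all genes did, and 2, POLD4 and TOP1, lay as far above, where 6.86% did. The SD came from probes on the same arrays, so error shared by the probes of a gene is not in it. Shares under this rule were not matched for brightness. The 40 genes had a median spot signal of 447 in DMSO, against 117 over all gene probes.

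**Figure D1:**
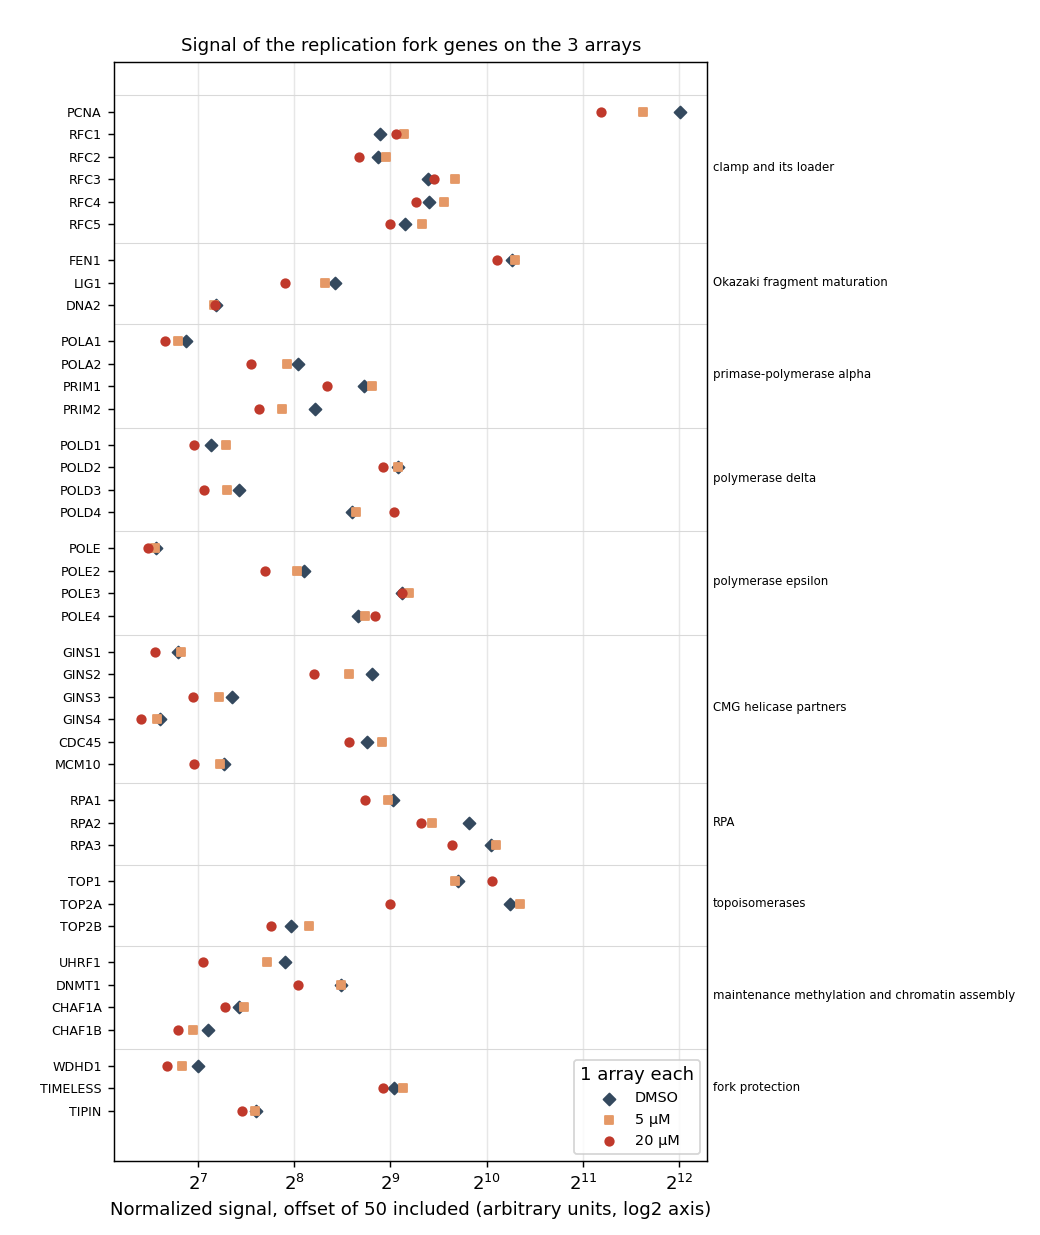
Normalized signal of each of the 40 replication fork genes, with the offset of 50 included, on a log2 axis, with 1 point per array (DMSO, 5 µM, 20 µM) and genes grouped by role down the page. In 33 of the 40 genes the 20 µM point is the leftmost of the 3.

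TOP2A, topoisomerase II alpha, which untangles sister chromatids, had the lowest ratio of the 40. Its normalized signal was 1213 in DMSO, 1306 with 5 µM and 511 with 20 µM. On this probe DMSO and 5 µM differed by less than 1 technical SD, and the 20 µM array stood well below both. TOP2A was 2.37-fold lower at 20 µM than in DMSO, the 1 gene of the 40 at least 2-fold apart, where 0.324% of all genes were at least 2-fold lower. Its second probe had a signal of 690 in DMSO, 599 with 5 µM and 259 with 20 µM, and a log2 ratio of -1.41 beside -1.25 on the first. In the authors' value table the first probe was 2.60-fold lower at 20 µM than in DMSO.

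UHRF1, which brings the maintenance methyltransferase DNMT1 to newly copied DNA, had a signal of 240.2 in DMSO, 210.1 with 5 µM and 133 with 20 µM. The signals were ordered by dose. It was 1.80-fold lower at 20 µM than in DMSO, and 2.41-fold lower in the authors' value table. Its second probe had a log2 ratio of -0.82, beside -0.85 on the first.

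PCNA, the sliding clamp, had a signal of 4132 in DMSO, 3163 with 5 µM and 2336 with 20 µM, again in order of dose. PCNA was 1.77-fold lower at 20 µM than in DMSO and 1.31-fold lower at 5 µM. The next, GINS2, a subunit of the GINS ring of the helicase, had 449.9 in DMSO, 381 with 5 µM and 295 with 20 µM, and was 1.52-fold lower at 20 µM than in DMSO. PRIM2, the large subunit of primase, had 298 in DMSO, 234 with 5 µM and 198.5 with 20 µM. Both genes thus had the dose order of PCNA, with the 5 µM array between the other two. Without background correction neither GINS2 nor PRIM2 was at least 1.5-fold lower.

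The promoters of these genes are shown because genes of this set are known targets of E2F factors and TOP2A is known for the promoter elements of late cell cycle genes. The sequences are RefSeq windows of build GRCh38.p14, from 250 bases before to 50 after an annotated start, and 35 of the 40 genes had at least 1 window. RPA2, RPA3, GINS4, DNA2 and POLD3 had no entry. Where a gene had several windows, the one with most matches is printed. Each is written 5′ to 3′ on the gene's strand, and capitals mark matches to 3 motifs searched on both strands: E2F-like letters (TTTCCCGC, TTTCGCGC, TTTGCCGC or TTTGGCGC), the cell cycle homology region or CHR-like letters TTTGAA, and CCAAT. No match overlapped another in these 5 windows. The first 4 belong to 4 of the 5 genes called lower at 20 µM than in DMSO, and POLD4 is shown as the gene with the highest ratio. The fifth called gene, PRIM2, has 2 windows, and neither holds a match to any of the 3 motifs, so none is printed.
TOP2A, chr17:40417847-40418146, minus strand: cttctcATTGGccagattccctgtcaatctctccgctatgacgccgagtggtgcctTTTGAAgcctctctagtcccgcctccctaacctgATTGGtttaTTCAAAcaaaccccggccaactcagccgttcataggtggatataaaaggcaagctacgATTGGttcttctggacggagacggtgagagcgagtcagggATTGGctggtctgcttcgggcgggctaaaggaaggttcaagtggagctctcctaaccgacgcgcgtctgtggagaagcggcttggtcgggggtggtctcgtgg
UHRF1, chr19:4909894-4910193, plus strand: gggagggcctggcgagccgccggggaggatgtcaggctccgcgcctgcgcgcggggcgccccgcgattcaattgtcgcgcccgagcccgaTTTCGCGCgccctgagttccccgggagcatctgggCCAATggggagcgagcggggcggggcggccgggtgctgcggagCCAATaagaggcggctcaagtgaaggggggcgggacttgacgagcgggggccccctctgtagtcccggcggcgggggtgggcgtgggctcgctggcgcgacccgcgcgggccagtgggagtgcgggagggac
PCNA, chr20:5126573-5126872, minus strand: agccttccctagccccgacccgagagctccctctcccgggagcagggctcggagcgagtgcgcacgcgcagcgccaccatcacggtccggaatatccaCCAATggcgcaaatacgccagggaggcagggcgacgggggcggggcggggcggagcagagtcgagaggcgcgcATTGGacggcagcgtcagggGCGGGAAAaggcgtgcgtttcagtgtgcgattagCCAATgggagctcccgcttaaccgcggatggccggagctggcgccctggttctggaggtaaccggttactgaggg
GINS2, chr16:85688905-85689204, minus strand: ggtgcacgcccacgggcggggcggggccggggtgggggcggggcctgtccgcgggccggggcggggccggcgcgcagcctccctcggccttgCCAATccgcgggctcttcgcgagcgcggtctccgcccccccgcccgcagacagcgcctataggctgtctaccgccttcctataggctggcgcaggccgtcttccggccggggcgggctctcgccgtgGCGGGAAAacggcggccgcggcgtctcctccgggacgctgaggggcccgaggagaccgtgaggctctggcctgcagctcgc
POLD4, chr11:67353547-67353846, minus strand: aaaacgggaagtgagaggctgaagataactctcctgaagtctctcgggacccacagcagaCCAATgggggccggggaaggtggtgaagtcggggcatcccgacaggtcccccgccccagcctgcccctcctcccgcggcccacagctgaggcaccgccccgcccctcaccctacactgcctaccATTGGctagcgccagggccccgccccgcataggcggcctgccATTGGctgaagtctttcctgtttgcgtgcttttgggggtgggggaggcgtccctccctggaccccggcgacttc

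The TOP2A window held 2 CHR-like and 4 CCAAT matches and no E2F-like one, while the UHRF1, PCNA and GINS2 windows each held 1 E2F-like match and both PRIM2 windows held 0 matches of any kind. Over the 47 windows of the 35 genes, 15 held E2F-like letters, or 31.9%, against 3.31% of all 35116 windows of the same length and 4.37% of the windows of genes detected on all 3 arrays. CCAAT was in 51.1% of the windows of the replication fork genes, in 34.6% of all windows and in 34.7% of those of detected genes. CHR-like letters were in 3 of the 47 windows, or 6.38%, against 15.2% of all windows and 11.7% of those of detected genes. The 14 genes with E2F-like letters in a window had a median log2 ratio of -0.41 for 20 µM over DMSO, and the 21 without had -0.18. The ranges overlapped, from -0.85 to 0.18 with the letters and from -1.25 to 0.44 without. Split by CCAAT, the medians were -0.20 for the 20 genes with it and -0.31 for the 15 without. Split by CHR-like letters, they were -0.21 for the 3 genes with them and -0.20 for the 32 without. The splits were made after the values were seen, and a link between motif and ratio was not tested. These are descriptions of letters in a window, whose base composition was not matched between the sets.

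Within the clamp loader the subunits kept close to DMSO at 20 µM. RFC1, the large subunit of the loader, had a signal of 475 in DMSO, 566 with 5 µM and 534 with 20 µM, and a log2 ratio of 0.17 for 20 µM over DMSO. Its second probe gave 0.051. The other 4 subunits, RFC2 to RFC5, had ratios between -0.19 and 0.058, within 2 technical SDs of 0, all above the -0.82 of PCNA. With some other processing RFC2 lay at -0.30 or below, and RFC3 turned below 0, at -0.060, with arrays scaled to equal medians. For 20 over 5 µM, RFC2, RFC4 and RFC5 were more than 2 technical SDs below 0. At 5 µM all 5 RFC subunits had ratios above 0, from 0.077 to 0.29, with RFC1 and RFC3 more than 2 technical SDs above. The second RFC1 probe gave 0.029 at this dose, within 2 technical SDs. When arrays were scaled to equal medians, RFC1 stood at 0.046 and RFC3 at 0.070, and RFC2, RFC4 and RFC5 turned below 0, so the values at 5 µM depend on the scaling.

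Among the enzymes that finish lagging-strand fragments, LIG1, the ligase that seals them, had 343 in DMSO, 321 with 5 µM and 239 with 20 µM. It was 1.44-fold lower at 20 µM than in DMSO. The flap nuclease FEN1 had a log2 ratio of -0.15, and DNA2, a nuclease and helicase that trims long flaps, had 145.4 in DMSO, 143.9 with 5 µM and 144.7 with 20 µM. The DNA2 signals differed by less than 1 technical SD between arrays.

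All 4 genes of primase and polymerase alpha, the enzyme that starts each strand, had log2 ratios below 0 for 20 µM over DMSO, with a median of -0.43, and PRIM2 was the 1 called. After PRIM2 came POLA2, the accessory subunit, at -0.49, and PRIM1, the catalytic subunit of primase, at -0.38. The catalytic subunit POLA1 was dim, with 117.5 in DMSO, 111 with 5 µM and 101 with 20 µM, and its ratio of -0.21 was within 2 technical SDs of 0.

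The polymerase that completes the lagging strand, delta, was split. POLD4, its smallest subunit, which is degraded after DNA damage, had the highest ratio of the 40 genes. Its signal was 388 in DMSO, 399 with 5 µM and 527 with 20 µM, so the 20 µM array was the high one. It was 1.36-fold higher at 20 µM than in DMSO. The other subunits went the other way: POLD3, an accessory subunit, had 172 in DMSO, 158 with 5 µM and 133.5 with 20 µM, with a log2 ratio of -0.37, while the catalytic subunit POLD1 stood at -0.18 and POLD2 at -0.16, both within 2 technical SDs of 0.

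Polymerase epsilon, which copies the leading strand, was close to DMSO in 3 of its 4 genes. POLE2, an accessory subunit, had 276 in DMSO, 262 with 5 µM and 208 with 20 µM, a log2 ratio of -0.41. The catalytic subunit POLE stood at -0.081, from a dim probe with 94.4 in DMSO. POLE3 and POLE4 are histone-fold subunits. POLE3 stood at 0.0010, and POLE4 had 407 in DMSO, 428 with 5 µM and 460.1 with 20 µM, a log2 ratio of 0.18. Both polymerases thus had subunits on either side of 0, although POLE3 turned below 0 under median scaling and in the authors' value table.

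The helicase partners had log2 ratios below 0 for 20 µM over DMSO in 6 of 6 genes, with a median of -0.27, but only GINS2 was called. Behind GINS2 came GINS3 at -0.41, MCM10, which helps activate the helicase, at -0.31, and then GINS1 at -0.24 and GINS4 at -0.19, both within 2 technical SDs of 0. A second probe of GINS3 gave 0.0047, the 1 case among 4 genes with several detected probes where the probes differed in sign. CDC45, which travels with the helicase, had 433 in DMSO, 483 with 5 µM and 381 with 20 µM. Its 5 µM array was the highest, and its log2 ratio for 20 µM over DMSO was -0.19, within 2 technical SDs of 0.

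RPA coats single-stranded DNA, and its 3 subunits had log2 ratios below 0 for 20 µM over DMSO, none of them called. RPA2, the middle subunit, had 900.0 in DMSO, 690.1 with 5 µM and 636 with 20 µM, so most of its difference from DMSO was present at 5 µM. Its log2 ratios were -0.50 for 20 µM and -0.38 for 5 µM over DMSO. RPA3 had a log2 ratio of -0.40 at 20 µM but 0.049 at 5 µM. RPA1, with 521 in DMSO, 503 with 5 µM and 426 with 20 µM, had -0.29 at 20 µM and was not among the genes beyond 2 technical SDs.

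The 3 topoisomerases differed most widely as a group. TOP1, which relaxes supercoils ahead of the fork, had 832 in DMSO, 818 with 5 µM and 1063 with 20 µM, and was 1.28-fold higher at 20 µM than in DMSO. A second TOP1 probe was not detected on any array. TOP2B, the type II enzyme that non-dividing cells also express, had 251 in DMSO, 286 with 5 µM and 217 with 20 µM, a log2 ratio of -0.21. The 20 µM array was thus highest of the 3 for TOP1 and lowest for TOP2A and TOP2B.

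Of the genes for methylation and chromatin assembly behind the fork, DNMT1 had a log2 ratio of -0.45 for 20 µM over DMSO. CAF-1, the chaperone that deposits histones on new DNA, was represented by CHAF1B at -0.31 and CHAF1A, which had 172 in DMSO, 179 with 5 µM and 156 with 20 µM and a ratio of -0.14. All 4 genes of the group were below 0. Among the factors that protect the fork, WDHD1, which tethers polymerase alpha to the helicase, had 128 in DMSO, 114 with 5 µM and 103 with 20 µM, a log2 ratio of -0.32. The partners TIMELESS and TIPIN were closer to 0, at -0.12 and -0.15, and TIMELESS had 526 in DMSO, 561 with 5 µM and 485 with 20 µM.

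**Figure D2:**
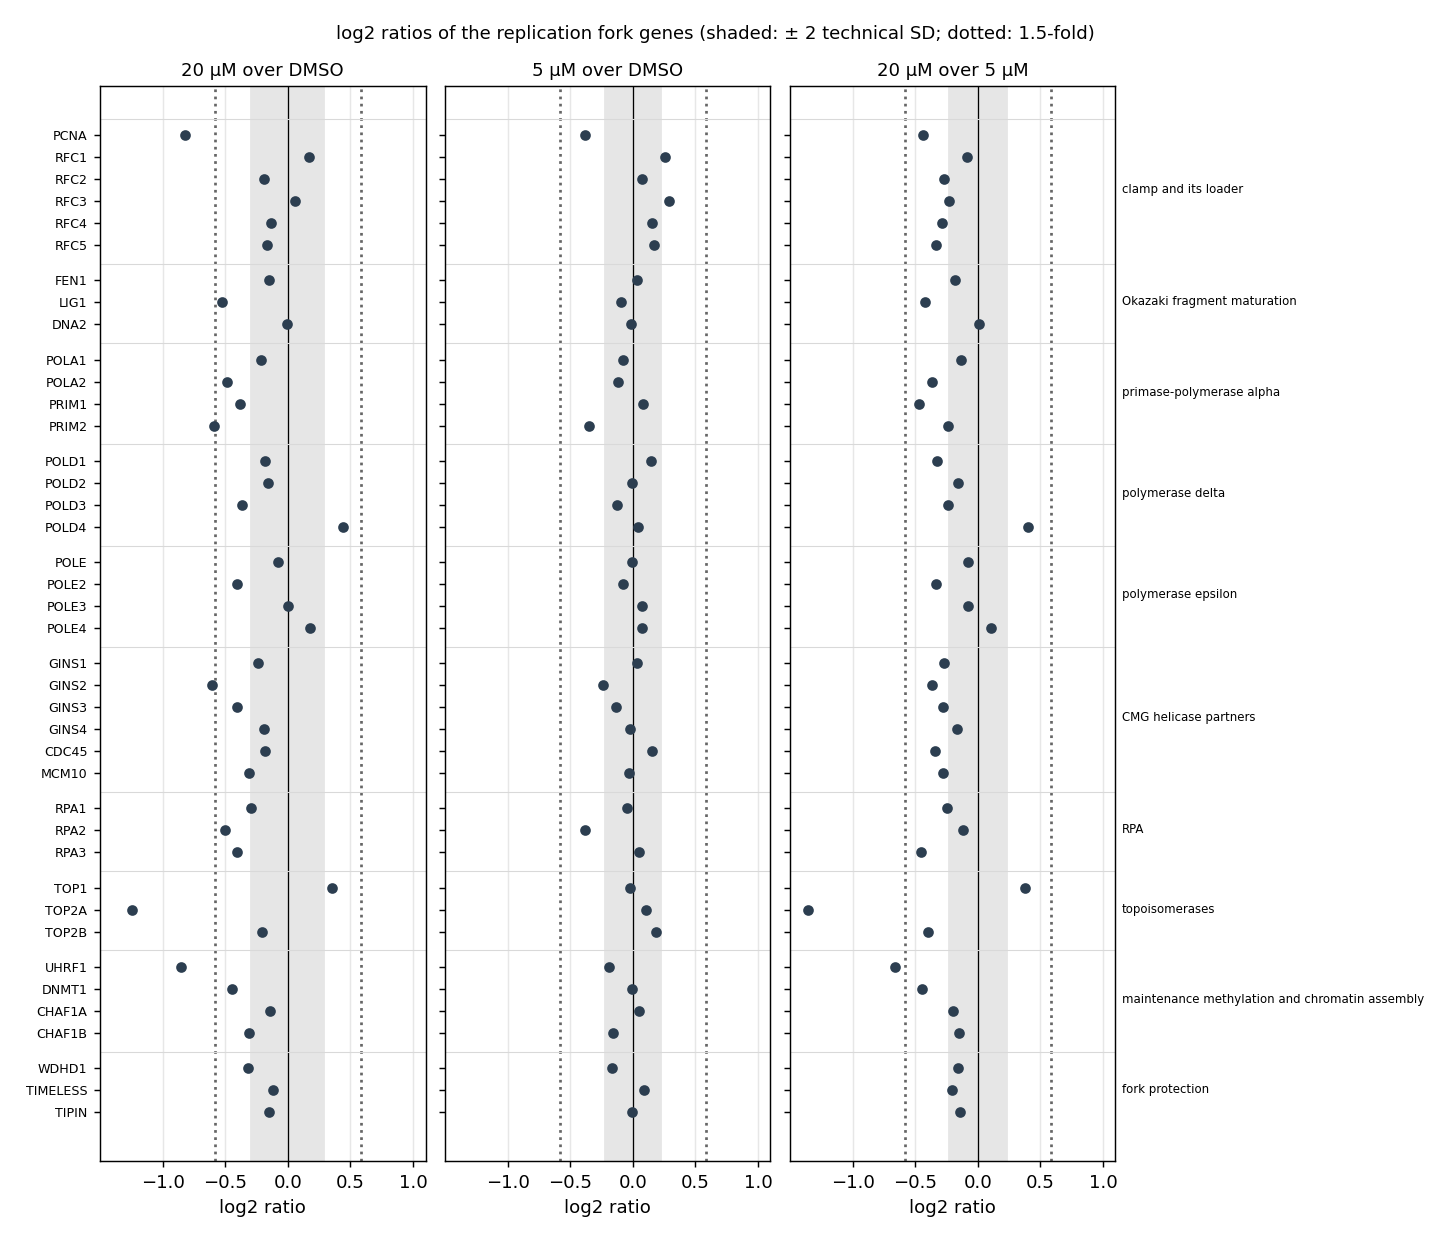
log2 ratio of each of the 40 genes in the 3 comparisons, with genes grouped by role; the shaded band is ± 2 technical SDs of a single ratio from probe pairs and the dotted lines mark 1.5-fold. TOP2A, UHRF1, PCNA, GINS2 and PRIM2 pass the lower line for 20 µM over DMSO, no gene passes either line for 5 µM over DMSO, and TOP2A and UHRF1 pass the lower line for 20 over 5 µM.

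At 5 µM, a comparison that shares the DMSO array with the one at 20 µM, the set was close to DMSO. Its median log2 ratio was -0.0053, against 0.0043 over all detected genes, and 22 of 40 genes were below 0, where 47.9% of 16075 genes were. None of the 40 was at least 1.5-fold lower, where 0.0871% of all genes were, and none at least 1.5-fold higher, where 0.386% were. More than 2 technical SDs below 0 were 4 genes, PCNA at -0.39, RPA2 at -0.38, PRIM2 at -0.35 and GINS2 at -0.24, where 5.36% of all genes were; 2, RFC3 at 0.29 and RFC1 at 0.25, lay as far above, where 4.49% of all genes did. TOP2A had a ratio of 0.11 at this dose, and its second probe gave -0.20. With arrays scaled to equal medians in place of quantile normalization, 2 of the 40 genes, PCNA and RPA2, were at least 1.5-fold lower, where 0.852% of all genes were, and 36 of 40 genes were below 0, where 54.4% of all genes were. The median was then -0.14, and 14 of the 40 genes, TOP2A among them, had the opposite sign to the quantile-normalized ratio. Under that scaling all probes with signals at least 2 times the threshold had a median of -0.17, so bright probes as a whole lay below 0 on it.

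The comparison of 20 with 5 µM does not use the DMSO array, though it shares the 20 µM array with the first comparison and the 5 µM array with the second. In it 36 of 40 genes were below 0, where 50.4% of 16036 genes were, and the median log2 ratio was -0.24, against -0.0011 over all genes. TOP2A was 2.55-fold lower at 20 than at 5 µM and UHRF1 1.58-fold lower, the 2 of 40 genes called, where 0.886% of all genes were at least 1.5-fold lower. TOP2A alone was at least 2-fold lower, where 0.0935% of all genes were. Without background correction only TOP2A was called at 1.5-fold. None of the 40 was at least 1.5-fold higher, where 0.917% of all genes were. Beyond 2 technical SDs below 0 were 22 of the 40 genes, where 7.10% of all genes were, and 2, POLD4 and TOP1, lay as far above, where 7.09% did. Besides TOP2A and UHRF1, the lowest log2 ratios were those of PRIM1 at -0.47, RPA3 at -0.45, DNMT1 at -0.44 and PCNA at -0.44. Genes above 0 were POLD4 at 0.40, TOP1 at 0.38, POLE4 at 0.10 and DNA2 at 0.0078.

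**Figure D3:**
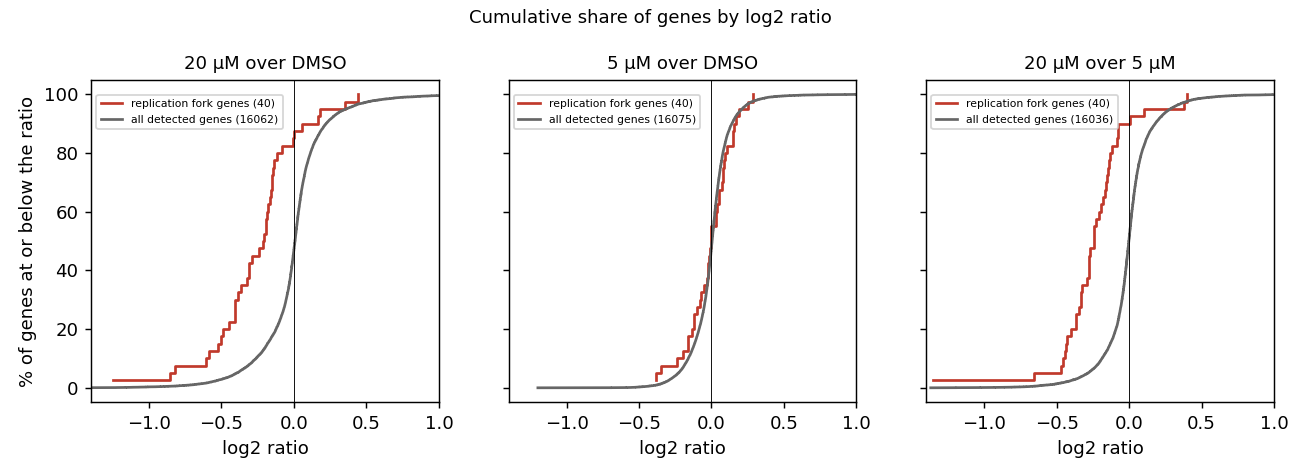
Cumulative share of genes, in percent, against the log2 ratio in each comparison, for the 40 replication fork genes and for all detected genes, with the axis limited to ratios between -1.4 and 1. The curve of the 40 genes runs left of that of all genes for 20 µM over DMSO, with a median of -0.21, and for 20 over 5 µM, with -0.24, and follows it for 5 µM over DMSO, with -0.0053.

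Across the 3 arrays, 33 of the 40 genes had their lowest signal at 20 µM, where 36.3% of 15920 genes did. In 20 of these 33 the 5 µM signal was below DMSO too, and in 13 it was above DMSO. The split was similar over all genes: of 5772 with their lowest signal at 20 µM, 3655 had the first order and 2109 the second. These are 23.0% and 13.2% of all 15920 genes. Some of the 20 were near 0 at 5 µM, such as POLE at -0.0026 and POLD2 at -0.0052, and only 4 were more than 2 technical SDs below 0. For all of the 13 but POLD1 and TOP2B the sign at 5 µM turned under median scaling. PCNA, UHRF1, GINS2, PRIM2, LIG1 and RPA2 were of the first kind, and TOP2A, TOP2B, CDC45, PRIM1, RPA3 and 3 RFC subunits of the second. POLD4, POLE4 and TOP1 were highest at 20 µM, 3 genes, where 38.4% of all genes were.

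Related lists place these values. For 20 µM over DMSO, 47.1% of all detected genes were below 0, 1.84% were called lower and 1.94% called higher. Of 17 genes of origin licensing, its control and origin firing, 14 were below 0 at 20 µM over DMSO. In this list 5 genes were called lower and 1 higher, and the median was -0.17. MCM6 and MCM3, subunits of the helicase core, had log2 ratios of -0.76 and -0.71, while CDC6, which loads that core, stood at 1.05 at 20 µM and 0.93 at 5 µM. Checkpoint genes and partners of PCNA had 11 of 14 below 0, 2 called lower and 1 called higher, and their median was -0.24. ETAA1, an activator of the checkpoint kinase ATR, stood at -0.69, PCLAF, a small PCNA-binding protein, at -0.61 and CDKN1A, the inhibitor of cyclin-dependent kinases that also binds PCNA, at 0.84.

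The other lists had medians nearer 0 than the licensing and checkpoint lists, apart from the late cell cycle genes. Their counts stand beside the same shares of all genes: 47.1% below 0, 1.84% called lower and 1.94% called higher. Polymerases of repair, bypass and mitochondria had 7 of 12 detected genes below 0, none called either way and a median of -0.064, with POLM at 0.46 and MAD2L2 and REV3L both at -0.21. Alternative clamps and loaders had 4 of 8 below 0 and 1 called, CHTF8 at -0.74, with RAD1 at -0.49, DSCC1 at -0.31 and a median of -0.11. The E2F factors themselves had a median of -0.037 and none called, with E2F2 and E2F8 at -0.32 and E2F6 at 0.30. All 11 late cell cycle genes were below 0 and 9 were called lower, around a median of -1.01; CCNB1 stood at -1.55, AURKA at -1.44 and BUB1 at -1.43. Of 7 housekeeping genes 6 were below 0 at 20 µM over DMSO, with a median of -0.14, led by PPIA at -0.58 and GAPDH at -0.39, with B2M at 0.20. The part of such a shift in the median of the replication fork genes was not tested.

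**Figure D4:**
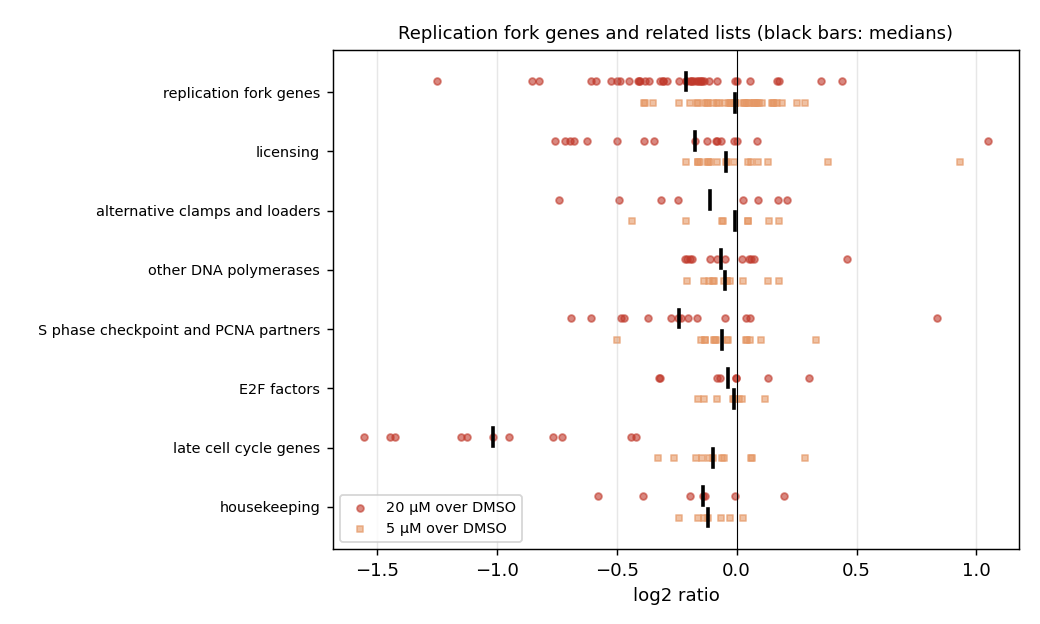
log2 ratios over DMSO of the replication fork genes and of 7 related lists, with 1 point per detected gene at 20 µM (circles) and 5 µM (squares) and a black bar at each median. The late cell cycle genes have the lowest median at 20 µM, -1.01, against -0.21 for the replication fork genes and -0.14 for the housekeeping genes.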

How the data were processed

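Total RNA from HT29 cells was measured on 1-colour Toray arrays, 1 per group. Per the file headers, the deposited scanner files hold the median intensity of each spot, with no background taken off. The authors' deposited value table also holds an intensity per probe; set against the scanner signal it is linear, meets 0 near the blank level and has a median of 25 on each array, so its arrays stand scaled to a common median. Spot signals were corrected with normexp (limma 3.58.1, R 4.3.3; offset 50), taken to log2 and quantile normalized over 24460 gene probes. The scanner's background column was not used in the main setting because it followed the spot signal itself, with a Spearman correlation between 0.962 and 0.967 over the spots of each array.

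A probe was detected above the mean plus 2 SD of 480 blank and negative control spots, trimmed by 5% at each end. Names came from the platform annotation: 21707 probes had 1 symbol, 0 several and 2753 none. The probe detected on most arrays, then brightest, stood for its gene. The pipeline was tested on simulated data; Python 3.11.15, pandas 2.3.3 and matplotlib 3.10.9 were used. With 1 array per group no test was run. Genes were called at 1.5-fold, with 2-fold as an alternative.

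The members and lists were chosen with earlier results of these data known. Genes given with all 3 signals were those called in any comparison and the highest and lowest of each role group, plus TOP2B, added after its values were seen, as were the 2-SD rule, the order of the 3 arrays and the split of ratios by motif; of each related list the 3 genes farthest from 0 were named. Alternatives were other background corrections, offset, scaling, value source, detection filter and probe choice.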

Additional observations from a re-analysis of the deposited data

How the results depend on the processing

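For 20 µM over DMSO, the median log2 ratio of the 40 genes was -0.21 in the main setting, -0.31 with an offset of 16, -0.30 under median scaling and -0.39 in the authors' value table. The count at least 1.5-fold lower was 5, where 1.84% of all genes were. It became 3 without background correction (TOP2A, UHRF1 and PCNA, with GINS2 and PRIM2 lost) and 10 in the authors' value table (where 6.93% of all genes were). At a 2-fold threshold it was 1, where 0.324% of all genes were. For 5 µM over DMSO, the median moved to -0.14 under median scaling, -0.069 in the authors' value table and 0.030 over the 33 genes with signals at least 2 times the threshold; median scaling gave 36 genes below 0 and 2 at least 1.5-fold lower. For 20 over 5 µM, the median was -0.29 with an offset of 16, -0.18 under median scaling and -0.29 in the authors' value table. There the count at least 1.5-fold lower, 2 in the main setting, was 1 without background correction, with the stricter filter and at a 2-fold threshold. Median scaling also shifted all probes with signals at least 2 times the threshold. Their median under it was -0.077 for 20 µM over DMSO and 0.072 for 20 over 5 µM. With the scanner's background column, 20 µM over DMSO gave a median of -0.0083 and 20 genes below 0. In it 5 genes were at least 1.5-fold lower and 5 higher, with PCNA at 4.60 and TOP2A at 0.22, both turned in sign. Shares of all genes were not computed without background correction or with the scanner's background column. With that column 5 µM over DMSO gave 3 genes lower and 3 higher by 1.5-fold. For 20 over 5 µM it gave a median of 0.045, turned in sign, with 16 genes below 0, 4 at least 1.5-fold lower and 5 higher. Paired probes for 1 gene then correlated across genes at -0.012 for 20 µM over DMSO, against 0.68 in the main setting, though genes are not independent replicates. Outside that column, TOP2A, UHRF1 and PCNA kept log2 ratios for 20 µM over DMSO between -1.38 and -1.21, between -1.27 and -0.75 and between -0.96 and -0.82. UHRF1 did not pass the stricter filter and has no value under it. Of the 120 log2 ratios of single genes, 30 under median scaling, 29 in the authors' value table, 4 with the mean of all detected probes and 3 with an offset of 16 moved by more than 1 technical SD, while with the scanner's background column 94 moved and 2 more were reversed; 0 of 120 did so without background correction or without the detection filter. No paired analysis was possible because each group had 1 array, and for the same reason no array could be left out. The spread between cultures was not measured, and dim genes such as POLE, GINS4 and POLA1 were limited by their signal over background.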
